A study of Mus musculus with 8 samples.

Results

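The CXC chemokines are small secreted proteins whose first cysteines are separated by a single residue, and 8 of them, Cxcl1, Cxcl2, Cxcl9, Cxcl10, Cxcl12, Cxcl13, Cxcl14 and Cxcl16, were followed here in mouse liver. Their rows were found by gene symbol in a table of 55335 genes, and all 8 passed the filter on low counts that left 15234 genes for testing. Poly(A)-selected RNA of whole liver was sequenced from 8 female mice, all on the NIAAA chronic-plus-binge ethanol diet, in which feeding with an ethanol liquid diet ends in a gavage of ethanol. The 4 Ripk1-hepKO mice (28, 34, 37 and 39) lack Ripk1 in hepatocytes, and the 4 Ripk1-Con mice (29, 32, 40 and 41) are their controls. Each mouse is a separate animal. The sources used here do not give the driver of the deletion, the alleles of the controls or the ages. Livers of mice fed no ethanol were not analysed here. Per the title, the study asked whether the scaffold function of hepatocyte RIPK1 restrains ER stress, apoptosis and inflammation in alcohol-fed liver.

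Chemokines guide leukocytes along gradients by binding G protein-coupled receptors. CXCL1 and CXCL2 act through CXCR2 and draw neutrophils, and their genes are induced by NF-kB after injury or endotoxin. CXCL9 and CXCL10 are induced by interferons and draw activated T cells and NK cells through CXCR3. CXCL12, the ligand of CXCR4 and ACKR3, is made constitutively by stromal, endothelial and other cells, CXCL13 draws B cells through CXCR5, and CXCL14 is expressed constitutively in many epithelia. CXCL16 is made as a transmembrane protein that binds CXCR6 on T and NKT cells and is shed by ADAM10.

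The regions upstream of the neutrophil-drawing and interferon-induced members are shown because these roles differ in the factors that induce them. Each line gives the 250 bases before the start of the gene on its own strand, from RefSeq on GRCm38.p6: chr5:90890995-90891244 (plus strand) for Cxcl1, chr5:90903649-90903898 (plus strand) for Cxcl2, chr5:92328080-92328329 (minus strand) for Cxcl9 and chr5:92348890-92349139 (minus strand) for Cxcl10. Capitals mark matches, on either strand, to the NF-kB consensus, to the interferon-stimulated response element (ISRE) or to the gamma-activated site (GAS, TTCNNNGAA).
Cxcl1: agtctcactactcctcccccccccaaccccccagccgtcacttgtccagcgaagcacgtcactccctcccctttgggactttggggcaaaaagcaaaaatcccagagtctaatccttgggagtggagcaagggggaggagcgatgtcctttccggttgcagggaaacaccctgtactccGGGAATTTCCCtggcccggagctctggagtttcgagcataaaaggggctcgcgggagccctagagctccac
Cxcl2: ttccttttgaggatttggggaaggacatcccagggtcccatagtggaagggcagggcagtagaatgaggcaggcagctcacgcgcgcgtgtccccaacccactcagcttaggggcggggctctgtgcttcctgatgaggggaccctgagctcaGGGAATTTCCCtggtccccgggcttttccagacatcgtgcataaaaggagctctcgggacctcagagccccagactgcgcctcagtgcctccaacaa
Cxcl9: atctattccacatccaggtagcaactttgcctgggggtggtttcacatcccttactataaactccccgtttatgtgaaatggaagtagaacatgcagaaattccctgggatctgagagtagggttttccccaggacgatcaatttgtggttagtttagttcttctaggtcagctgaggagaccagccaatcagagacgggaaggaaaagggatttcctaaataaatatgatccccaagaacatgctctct
Cxcl10: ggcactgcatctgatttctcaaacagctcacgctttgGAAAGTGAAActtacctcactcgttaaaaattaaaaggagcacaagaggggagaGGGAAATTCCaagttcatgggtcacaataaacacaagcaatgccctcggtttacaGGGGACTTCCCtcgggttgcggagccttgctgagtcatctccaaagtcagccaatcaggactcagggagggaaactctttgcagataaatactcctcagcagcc
Cxcl1 and Cxcl2 each held 2 overlapping NF-kB matches in a stretch of the same letters, 61 to 71 bases before the start of Cxcl1 and 87 to 97 bases before that of Cxcl2. Cxcl10 held 3 NF-kB matches, 2 of them overlapping, and an ISRE 204 to 213 bases before its start. Cxcl9 held none of the 3 motifs in this window, nor did Cxcl12 or Cxcl13, while Cxcl14 held an ISRE and a GAS. Over all 32851 upstream regions of the same length, 7.25% held the NF-kB motif, 2.98% the ISRE and 7.02% the GAS. Starts are those of RefSeq, and against the GENCODE genes whose coordinates are given further on, the window ends 4 bases inside Cxcl1 and 28 bases inside Cxcl2. A match describes letters and was not tested as a binding site. A sequence was found for 7 of the 8 genes, all but Cxcl16.

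Library totals ran from 28038390 to 67328158 counts. Mouse 28 had a mean Spearman correlation of 0.954 with the other libraries, against 0.974 to 0.980 for the remaining mice. Values without it are given where it moves the log2 fold change of a member by over 1.5 times. The targeted gene Ripk1 averaged 32.5 ± 6.63 CPM (counts relative to library size, scaled by TMM) in Ripk1-hepKO and 37.5 ± 11.2 CPM in Ripk1-Con (SD, n = 4 each; log2 fold change -0.21 ± 0.22 SE, edgeR adjusted p = 0.866), and the groups overlapped. Ripk1 did not separate the groups, which are those the labels give. The hepatocyte marker list, led by Alb, summed to 84306 to 101737 CPM in Ripk1-hepKO and 96642 to 120058 CPM in Ripk1-Con.

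No CXC chemokine differed between the genotypes past an adjusted p of 0.05. Of the 8 members, 0 passed by edgeR's quasi-likelihood test adjusted over 15234 genes, as did 0% of all genes tested, and their adjusted p ran from 0.742 to 0.974. DESeq2 called 0 of the 8 and 0.237% of all genes, and limma voom called 0 of the 8. At an unadjusted p under 0.05, 4 of the 8 were higher in Ripk1-hepKO (Cxcl2, Cxcl9, Cxcl14 and Cxcl16) and 0 were lower, where 3.86% of all genes were higher and 2.82% lower (6.68% in either direction). In either direction, the count of members was 2 without mouse 28 and 2 without mouse 32, and ran from 2 to 6 with any 1 mouse left out. Over all genes the count was 891 of 15500 without mouse 28 and 760 of 15548 without mouse 32. Without mouse 37, which gave 6 members, it was 1409 of 15537. The groups overlapped for all 8, while 4.10% of genes had groups that did not overlap, 2.01% with Ripk1-hepKO the higher. A log2 fold change above 1 was found for 4 of the 8 (Cxcl2, Cxcl9, Cxcl10 and Cxcl14), against 2.26% of all genes (3.20% past 1 in either direction). Log2 fold changes lay above 0 for 7 of the 8, all but Cxcl12, as for 51.8% of all genes, and the median was 0.78 for the members and 0.01 for all genes tested. Other lists also had high shares above 0, such as 9 of 9 stellate cell, 9 of 10 neutrophil and 8 of 9 Kupffer cell markers tested. The share was 2 of 4 for B cell, 1 of 4 for erythroid and platelet, and 1 of 7 for hepatocyte markers. Leaving out Cxcl2, whose low counts are described with its values, 3 of the other 7 members were under an unadjusted p of 0.05, 3 were above a log2 fold change of 1 and 6 above 0, with a median of 0.37.

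**Figure D1:**
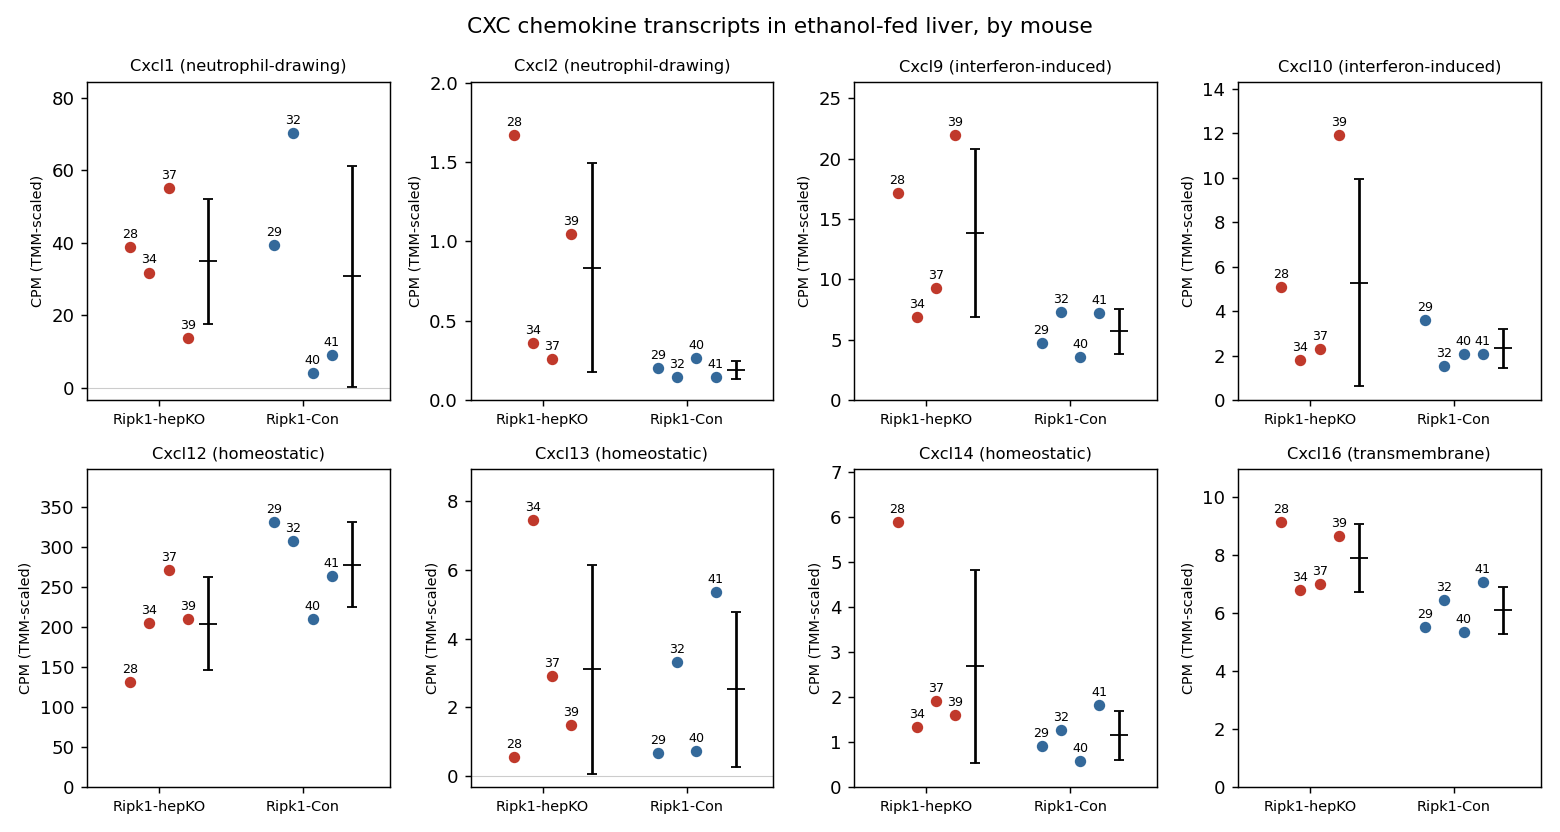
Level of each CXC chemokine in CPM (counts relative to library size, scaled by TMM) for every mouse, numbered, with the mean and SD of each group of 4 mice as black bars. Mice 28 and 39 are the highest for Cxcl2, Cxcl9, Cxcl10 and Cxcl16, while Cxcl1 runs from 4.05 CPM in mouse 40 to 70.2 CPM in mouse 32.

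The neutrophil-drawing members ordered the mice differently, and neither passed the test. Cxcl1 (ENSMUSG00000029380, chromosome 5, 90891241 to 90893115 on GRCm38) stood at 38.8, 31.8, 55.2 and 13.6 CPM in mice 28, 34, 37 and 39 (Ripk1-hepKO), and at 39.3, 70.2, 4.05 and 9.12 CPM in mice 29, 32, 40 and 41 (Ripk1-Con). The controls spanned the whole range of Cxcl1, with both the highest and the lowest mouse among them. The group means were 34.9 ± 17.3 CPM in Ripk1-hepKO and 30.7 ± 30.6 CPM in Ripk1-Con (SD, n = 4 each), and the log2 fold change was 0.18 with an SE of 0.78 (edgeR adjusted p = 0.974; 95% interval -1.59 to 1.95). The sign of this value turned without mouse 37, 40 or 41. Cxcl2 (ENSMUSG00000058427, chromosome 5, 90903871 to 90905938), which neighbours Cxcl1, stood at 1.67, 0.362, 0.257 and 1.05 CPM in mice 28, 34, 37 and 39 (Ripk1-hepKO), and at 0.200, 0.145, 0.266 and 0.142 CPM in mice 29, 32, 40 and 41 (Ripk1-Con). Mice 28 and 39 stood above the rest for Cxcl2, and mouse 37 lay within the range of the controls. These levels rest on 11 to 91 counts per library in Ripk1-hepKO and 6 to 9 in Ripk1-Con. Cxcl2 averaged 0.834 ± 0.657 CPM in Ripk1-hepKO and 0.188 ± 0.0579 CPM in Ripk1-Con, and the log2 fold change was 2.18 with an SE of 0.63 (edgeR adjusted p = 0.742), and 1.6 without mouse 28. Cxcl2 passed the filter on low counts through Ripk1-hepKO, as 4 Ripk1-hepKO libraries and 1 Ripk1-Con library reached its cutoff of 0.238 CPM. Its entry into the test thus leaned on the group in which it was higher, and its fold change is a description.

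Counts of Cxcl1 exceeded those of Cxcl2 in every mouse, by a factor that varied widely. In each Ripk1-Con mouse this factor rests on 6 to 9 counts of Cxcl2. The exon lengths were 1875 bases for Cxcl1 and 2068 for Cxcl2, or 953 and 1859 bases with protein-coding transcripts alone. The ratio was 23.3, 87.7, 215 and 13 in mice 28, 34, 37 and 39 (Ripk1-hepKO), and 197, 483, 15.2 and 64.0 in mice 29, 32, 40 and 41 (Ripk1-Con). It was lowest in mouse 39, in which Cxcl1 was low and Cxcl2 high, and highest in mouse 32, in which Cxcl1 was high and Cxcl2 low. The genes are paralogs, and how reads common to both were assigned was not given in the sources used here.

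Neutrophil markers are given beside Cxcl1 because both were lowest in mouse 40. The summed list came almost wholly (97.6%) from Lcn2, which hepatocytes also express, so the sum of the other 12 markers is given, a choice made after seeing the data. It was 49.1, 32.6, 41.5 and 10.5 CPM in mice 28, 34, 37 and 39 (Ripk1-hepKO), and 25.7, 36.6, 3.92 and 17.9 CPM in mice 29, 32, 40 and 41 (Ripk1-Con). Mouse 40, lowest for Cxcl1, was also lowest for this sum, with Retnlg, Ly6g, Camp, Ngp, Ltf, Mpo and Elane at 0 counts, while mouse 39 was the next lowest. Camp was also at 0 in mice 28, 34 and 39, Mpo in mice 28 and 39, Ly6g in mice 39 and 41, and Elane in mouse 39. Mouse 28 had the highest sum. The library of mouse 40 was the smallest, at 28038390 counts. Mouse 40 was the lowest for the Kupffer cell (105 CPM), monocyte, dendritic cell, T and NK cell and cholangiocyte markers as well. S100a8, a calprotectin subunit abundant in neutrophils, stood at 1.10 to 9.28 CPM in Ripk1-hepKO and 0.232 to 4.96 CPM in Ripk1-Con. Of 13 neutrophil markers 10 were tested, 0 passed in edgeR in either direction, and their median log2 fold change was 0.49. Whether neutrophil content had a part in the Cxcl1 levels was not tested, and in whole liver more cells of a type and more RNA per cell cannot be told apart.

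The interferon-induced members had their highest levels in the same 2 Ripk1-hepKO mice. Cxcl9 (ENSMUSG00000029417, chromosome 5, 92321347 to 92328079) stood at 17.2, 6.91, 9.30 and 21.9 CPM in mice 28, 34, 37 and 39 (Ripk1-hepKO), and at 4.71, 7.34, 3.59 and 7.24 CPM in mice 29, 32, 40 and 41 (Ripk1-Con). Mice 28, 37 and 39 stood above every control for Cxcl9, and mouse 34 lay among the controls. It averaged 13.8 ± 6.96 CPM in Ripk1-hepKO and 5.72 ± 1.87 CPM in Ripk1-Con (SD, n = 4 each), and the log2 fold change was 1.27 with an SE of 0.38 (edgeR unadjusted p = 0.00908, adjusted p = 0.742; 95% interval 0.40 to 2.14), and 0.96 without mouse 39. Cxcl10 (ENSMUSG00000034855, chromosome 5, 92346638 to 92348889) stood at 5.08, 1.81, 2.29 and 11.9 CPM in mice 28, 34, 37 and 39 (Ripk1-hepKO), and at 3.59, 1.54, 2.09 and 2.07 CPM in mice 29, 32, 40 and 41 (Ripk1-Con). Mouse 39 was far above the rest for Cxcl10, mouse 28 came next, and mice 34 and 37 lay within the control range. Cxcl10 averaged 5.27 ± 4.66 CPM in Ripk1-hepKO and 2.32 ± 0.886 CPM in Ripk1-Con (SD, n = 4 each). Its log2 fold change was 1.19 with an SE of 0.58 (edgeR adjusted p = 0.757; 95% interval -0.11 to 2.49), and 0.42 without mouse 39. Cxcl10 shares 133 exonic bases with Art3 on the other strand, a gene at 0.792 to 1.28 CPM over the 8 mice.

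Markers of T and NK cells, which CXCR3 ligands draw, summed to 5.68 to 7.17 CPM in Ripk1-hepKO and 3.89 to 6.56 CPM in Ripk1-Con. Of 10 such markers 8 were tested, 5 lay above 0 and 0 passed. Their log2 fold changes ran from -0.51 to 1.43, with a median of 0.73. Monocyte markers summed to 13.2 to 32.8 CPM in Ripk1-hepKO and 8.34 to 19.7 CPM in Ripk1-Con. Their part in the levels of Cxcl9 and Cxcl10 was not tested.

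Lists of interferon-induced genes give context for these values. The 15 type I interferon response genes summed to 160, 90.7, 99.9 and 157 CPM in mice 28, 34, 37 and 39 (Ripk1-hepKO), and to 107 to 115 CPM in the 4 Ripk1-Con mice. Mice 28 and 39 were thus highest for this sum too, and mice 34 and 37 were below every control. All 15 were tested, 11 lay above 0, 0 passed in edgeR, and the median log2 fold change was 0.20. Ifit2, an antiviral protein induced by interferon, averaged 5.64 ± 3.05 CPM in Ripk1-hepKO and 1.42 ± 1.35 CPM in Ripk1-Con, and Oasl1 6.73 ± 2.27 against 4.41 ± 0.779 CPM. The interferon-gamma response genes had 17 of 20 tested, 11 above 0, 0 that passed and a median of 0.08. They summed to 728, 423, 407 and 474 CPM in mice 28, 34, 37 and 39 (Ripk1-hepKO), and to 574, 632, 422 and 438 CPM in mice 29, 32, 40 and 41 (Ripk1-Con). Mouse 39, highest for Cxcl9 and Cxcl10, lay below controls 29 and 32 for this sum. Over the 8 mice 48.9% of the sum came from Iigp1 alone, so its order of mice leans on that gene. Iigp1 stood at 435, 198, 163 and 170 CPM in mice 28, 34, 37 and 39 (Ripk1-hepKO). In mice 29, 32, 40 and 41 (Ripk1-Con) it stood at 314, 339, 171 and 213 CPM. The sum without Iigp1 was not computed. Within that list, Gbp2, a guanylate-binding protein, averaged 15.4 ± 10.2 CPM in Ripk1-hepKO and 6.37 ± 1.92 CPM in Ripk1-Con. Psmb8, an immunoproteasome subunit, averaged 24.5 ± 3.64 CPM in Ripk1-hepKO and 19.2 ± 1.49 CPM in Ripk1-Con, while Irgm2, an immunity-related GTPase, averaged 32.3 ± 4.67 against 41.6 ± 8.15 CPM. Ifng was at most 0.133 CPM in any mouse, and 0 counts in 5 of the 8. The difference between these lists and Cxcl9 or Cxcl10 was not tested.

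**Figure D2:**
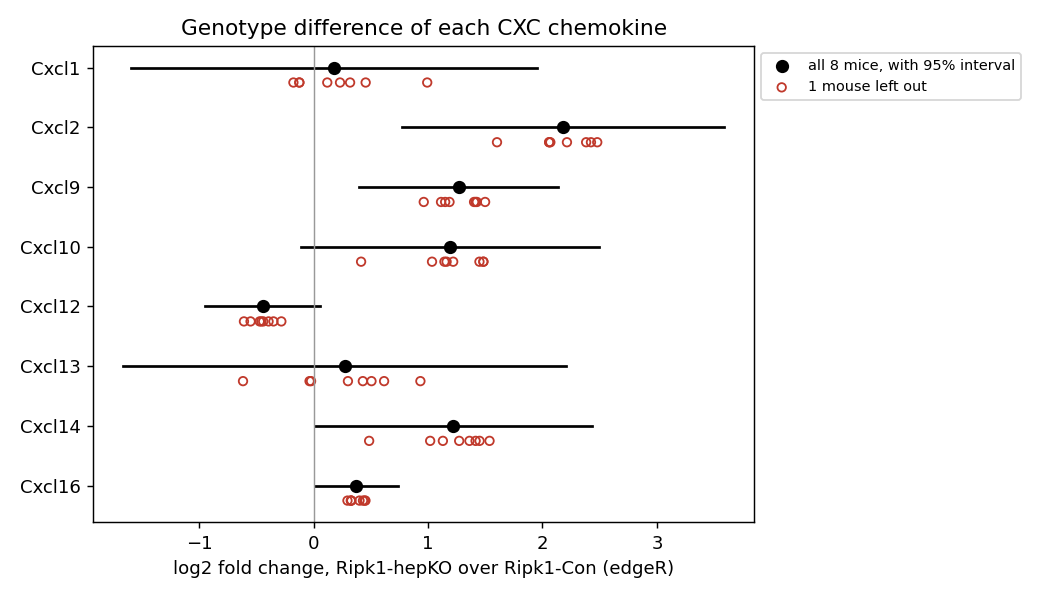
Log2 fold change of each CXC chemokine, Ripk1-hepKO over Ripk1-Con, from edgeR with all 8 mice (filled points, bars 95% intervals before adjustment over genes) and with each mouse left out in turn (open red circles). Open circles for Cxcl1 run from -0.18 to 0.99 and for Cxcl13 from -0.62 to 0.93, on both sides of 0, while those of the other 6 genes stay on 1 side.

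Cxcl12, a homeostatic member, was the only one of the 8 with a negative log2 fold change. Cxcl12 (ENSMUSG00000061353, chromosome 6, 117168535 to 117181367) stood at 131, 205, 272 and 211 CPM in mice 28, 34, 37 and 39 (Ripk1-hepKO), and at 332, 308, 210.4 and 264 CPM in mice 29, 32, 40 and 41 (Ripk1-Con). Mouse 28 was the lowest, mice 29 and 32 the highest, and the ranges overlapped. It averaged 204 ± 57.7 CPM in Ripk1-hepKO and 278 ± 53.4 CPM in Ripk1-Con (SD, n = 4 each), and the log2 fold change was -0.45 with an SE of 0.22 (edgeR adjusted p = 0.762; 95% interval -0.95 to 0.06), and -0.28 without mouse 28. The summed stellate cell markers were 252 to 297 CPM in Ripk1-hepKO and 212 to 253 CPM in Ripk1-Con, and the sinusoidal endothelial markers 190.0 to 312 against 136 to 263 CPM. Both cell types express Cxcl12. Their part in the Cxcl12 values was not tested.

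Cxcl13 and Cxcl14 were low and varied from mouse to mouse. Cxcl13 (ENSMUSG00000023078, chromosome 5, 95956951 to 95961068) stood at 0.568, 7.44, 2.92 and 1.5 CPM in mice 28, 34, 37 and 39 (Ripk1-hepKO), and at 0.685, 3.31, 0.731 and 5.37 CPM in mice 29, 32, 40 and 41 (Ripk1-Con). Both groups held mice near the floor of that range and mice several times higher. Cxcl13 averaged 3.11 ± 3.05 CPM in Ripk1-hepKO and 2.52 ± 2.26 CPM in Ripk1-Con (SD, n = 4 each). Its log2 fold change was 0.27 with an SE of 0.85 (edgeR adjusted p = 0.961; 95% interval -1.66 to 2.21), and 0.62 without mouse 28. The sign turned without mouse 29, 34 or 40. The summed B cell markers were 2.31 to 6.20 CPM in Ripk1-hepKO and 2.46 to 5.85 CPM in Ripk1-Con, and mouse 34, highest for Cxcl13, was the lowest for this sum. Cxcl14 (ENSMUSG00000021508, chromosome 13, 56288643 to 56296551) stood at 5.88, 1.34, 1.92 and 1.59 CPM in mice 28, 34, 37 and 39 (Ripk1-hepKO), and at 0.913, 1.26, 0.565 and 1.83 CPM in mice 29, 32, 40 and 41 (Ripk1-Con). Mouse 28 stood apart, and the other Ripk1-hepKO mice overlapped the controls. Cxcl14 averaged 2.68 ± 2.15 CPM in Ripk1-hepKO and 1.14 ± 0.539 CPM in Ripk1-Con (SD, n = 4 each). Its log2 fold change was 1.22 with an SE of 0.54 (edgeR adjusted p = 0.747; 95% interval 0.01 to 2.43), and 0.49 without mouse 28.

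Cxcl16 varied least of the 8, by 1.71-fold between the lowest and the highest mouse. Cxcl16 (ENSMUSG00000018920, chromosome 11, 70453983 to 70459984) stood at 9.13, 6.77, 7.01 and 8.66 CPM in mice 28, 34, 37 and 39 (Ripk1-hepKO), and at 5.50, 6.43, 5.35 and 7.08 CPM in mice 29, 32, 40 and 41 (Ripk1-Con). Mouse 41 kept the groups from separating, as the other controls lay below every Ripk1-hepKO mouse. It averaged 7.89 ± 1.18 CPM in Ripk1-hepKO and 6.09 ± 0.814 CPM in Ripk1-Con (SD, n = 4 each), and the log2 fold change was 0.37 with an SE of 0.16 (edgeR adjusted p = 0.742; 95% interval 0.01 to 0.74), and 0.30 to 0.45 with any 1 mouse left out. Kupffer cell markers, from macrophages that express Cxcl16, summed to 254 to 380 CPM in Ripk1-hepKO and 105 to 430.0 CPM in Ripk1-Con, and their part in its level was not tested. Cxcl16 shares 552 exonic bases with Zmynd15 on the other strand, a gene at 1.37 to 5.76 CPM, and the strand setting of the counting was not given in the sources used here.

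Levels of different genes were compared as RPKM (CPM per kilobase of exon). Over all 8 mice the order was Cxcl12 at 29.5, Cxcl1 at 17.5, Cxcl9 at 3.24, Cxcl13 at 2.45, Cxcl16 at 2.31, Cxcl10 at 1.69, Cxcl14 at 1.05 and Cxcl2 at 0.247 RPKM. The ranges of all neighbours in this order overlapped. Cxcl14 was above Cxcl2 in 8 of 8 mice, whereas Cxcl13 was above Cxcl16 in 4 of 8, as was Cxcl10 above Cxcl14. The first place depends on the length used: annotated transcripts with retained introns fill the introns of Cxcl1, and with the exons of protein-coding transcripts alone Cxcl1 came to 34.4 RPKM and Cxcl12 to 33.7 RPKM.

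**Figure D3:**
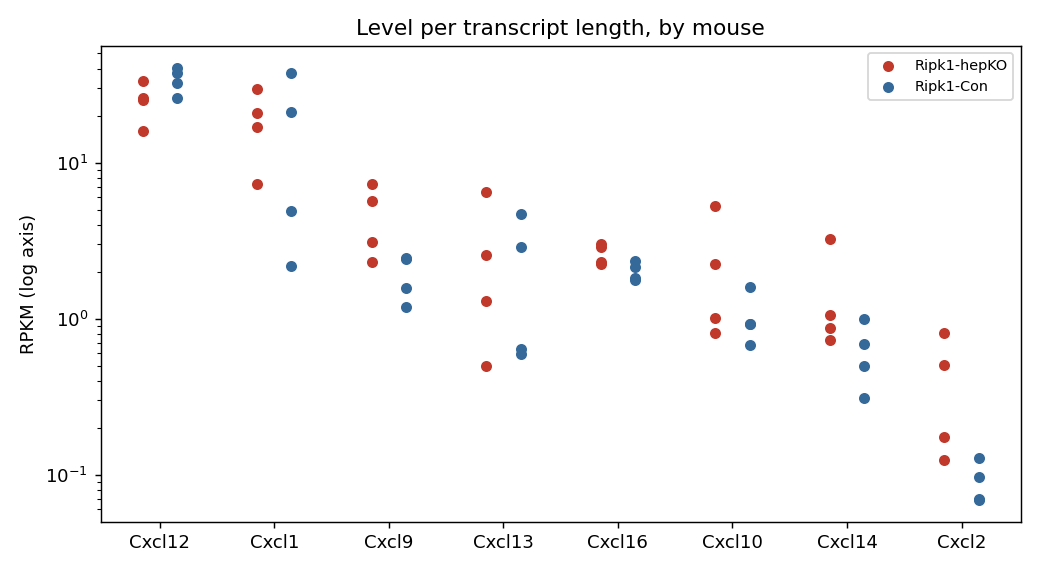
Level per exon length of each CXC chemokine in RPKM (log axis), 1 point per mouse, Ripk1-hepKO in red and Ripk1-Con in blue, ordered by the mean of all 8 mice. Cxcl12 and Cxcl1 lead, Cxcl2 is lowest, and every pair of neighbours overlaps.

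Relations between members over the 8 mice were computed for all 28 pairs on log2(CPM + 0.5), and 3 passed Benjamini-Hochberg adjustment. Cxcl9 and Cxcl16 had Pearson r = 0.96 (exact permutation p = 0.00129, adjusted p = 0.0316; Spearman rho = 0.86, exact permutation p = 0.0107, adjusted p = 0.150), and r = 0.93 without the 2 mice farthest from the median of Cxcl9. Cxcl14 and Cxcl16 had r = 0.85 (exact permutation p = 0.00226, adjusted p = 0.0316; rho = 0.90, exact permutation p = 0.00456, adjusted p = 0.128), and r = 0.70 on the same terms. Cxcl2 and Cxcl12 went in opposite directions, with r = -0.85 (exact permutation p = 0.00427, adjusted p = 0.0398; rho = -0.76, exact permutation p = 0.0368, adjusted p = 0.257), and r = -0.73. Cxcl2 passed the filter on low counts through Ripk1-hepKO and had 6 to 9 counts per Ripk1-Con library. Its relation to Cxcl12 over pooled genotypes is therefore a description, although it is counted among the 3. None of the 28 passed by rank, and 0 passed with the genotype means removed, where the lowest adjusted p was 0.251. On those values r was 0.92 for Cxcl9 and Cxcl16, 0.77 for Cxcl14 and Cxcl16, and -0.76 for Cxcl2 and Cxcl12. The number that passed was 0 without mouse 28, 34, 29, 32 or 40.

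Within roles, neither pair passed adjustment. The pair of Cxcl1 and Cxcl2 is a description, because Cxcl2 passed the filter on low counts through Ripk1-hepKO. Cxcl2 had 6 to 9 counts per Ripk1-Con library. Cxcl9 and Cxcl10 had r = 0.75 (exact permutation p = 0.0316, adjusted p = 0.131; rho = 0.48, exact permutation p = 0.243, adjusted p = 0.698), and r = -0.37 without mice 28 and 39, so the relation rests on those mice. Cxcl1 and Cxcl2 had r = 0.03 (exact permutation p = 0.952, adjusted p = 0.952; rho = -0.19, exact permutation p = 0.665, adjusted p = 0.938), and r = -0.57 without mice 40 and 41.

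**Figure D4:**
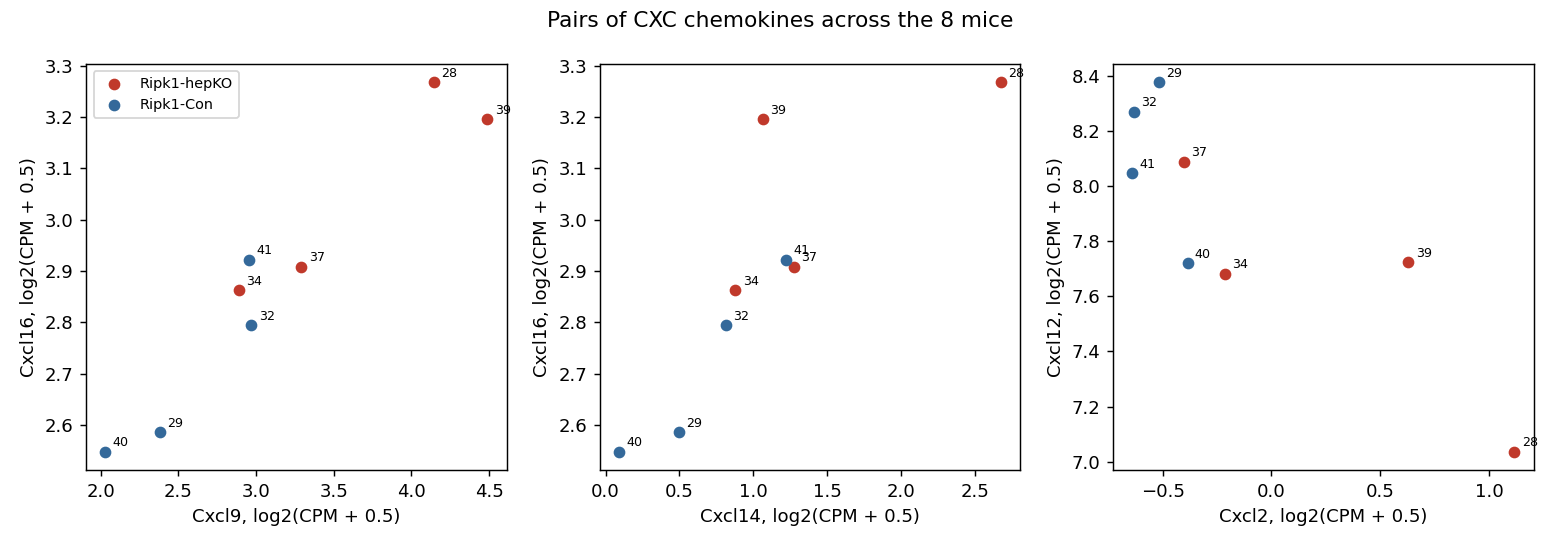
The 3 pairs of CXC chemokines whose Pearson r passed adjustment over 28 pairs, as log2(CPM + 0.5) in each numbered mouse, Ripk1-hepKO in red and Ripk1-Con in blue. Mice 28 and 39 lie at the upper right for Cxcl9 with Cxcl16, and mouse 28 at the far end in each panel or next to it. Cxcl2 rests on 6 to 91 counts per library, and its pair is a description.

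**Figure D5:**
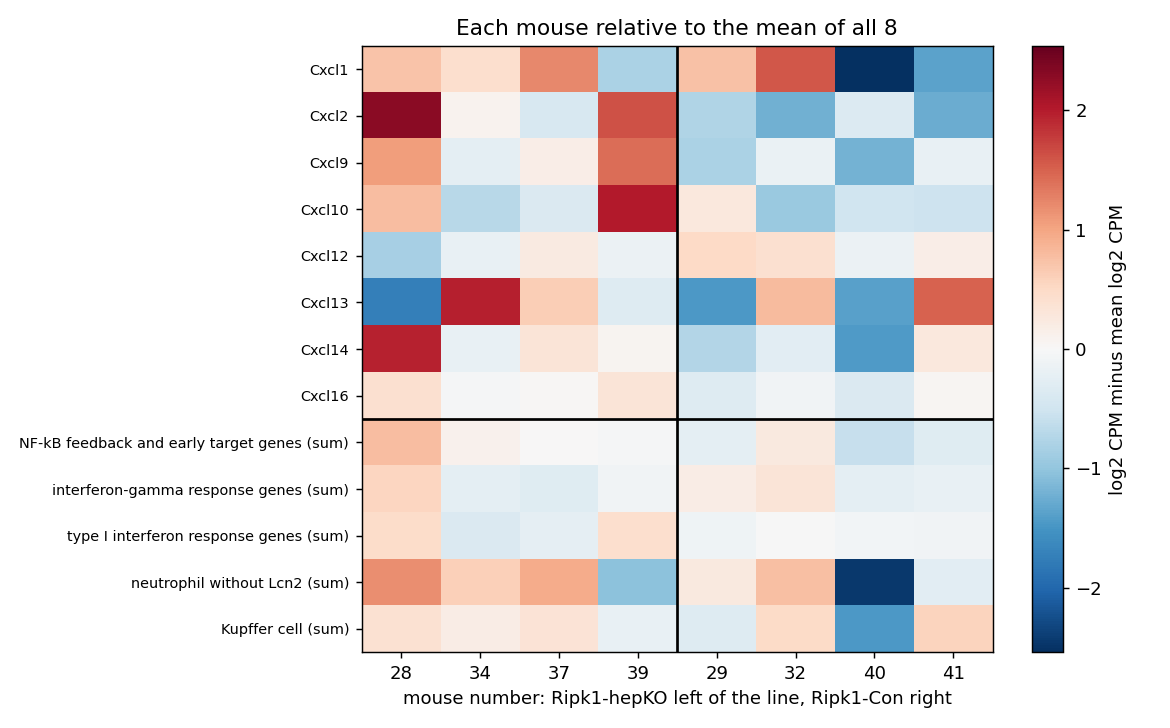
Each CXC chemokine and 5 summed gene lists (rows) in each mouse (columns, Ripk1-hepKO left of the vertical line), coloured by log2 CPM minus the mean log2 CPM of the 8 mice. Mice 28 and 39 share red cells for Cxcl2, Cxcl9, Cxcl10 and type I interferon genes but have opposite colours for Cxcl1 and for the neutrophil markers without Lcn2.

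The genes that ordered the mice most like each member were found among protein-coding genes with a mean of at least 1 CPM. For Cxcl12, Grb7, Il15ra and Hps5 ordered all 28 pairs of mice as it did. Me2 matched Cxcl9, Sirpa matched Cxcl14 and Cd2bp2 matched Cxcl2 in 28 of 28 pairs. For Cxcl2, the order among the Ripk1-Con mice rests on 6 to 9 counts per library. Ninj1 and Skiv2l matched Cxcl1 in 27 pairs, as did Dact1 for Cxcl10, Atp13a2 for Cxcl13, and Tuba1a, Cdc42ep2 and Capg for Cxcl16. These are the closest of 11222 genes compared, and with 8 mice such matches describe these animals.

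Most of the other CXC ligands were near the floor. Of the 7 other ligands, 2 were tested and 0 passed. Cxcl11, a further CXCR3 ligand, stood at 1.72, 3.71, 3.01 and 8.14 CPM in mice 28, 34, 37 and 39 (Ripk1-hepKO), and at 7.76, 4.30, 5.65 and 6.79 CPM in mice 29, 32, 40 and 41 (Ripk1-Con). It was lowest in mouse 28, a mouse high for Cxcl9 and Cxcl10, and its log2 fold change was -0.56 with an SE of 0.43 (edgeR adjusted p = 0.812). Pf4, the platelet factor, averaged 0.377 ± 0.195 CPM in Ripk1-hepKO and 0.180 ± 0.0969 CPM in Ripk1-Con, and Cxcl3 and Cxcl5, which also act on CXCR2, had at most 3 and 5 counts in a library.

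Of the 8 receptors 6 were tested and 0 passed in edgeR. Cxcr2, the receptor of Cxcl1 and Cxcl2, stood at 4.2, 2.17, 1.96 and 0.614 CPM in mice 28, 34, 37 and 39 (Ripk1-hepKO), and at 0.742, 1.45, 0.465 and 1.28 CPM in mice 29, 32, 40 and 41 (Ripk1-Con). It was highest in mouse 28 and lowest in mice 40 and 39, the mice that were also lowest for the neutrophil markers without Lcn2. Its log2 fold change was 1.16 with an SE of 0.55 (edgeR adjusted p = 0.756). Cxcr6, the receptor of CXCL16, averaged 0.291 ± 0.0882 CPM in Ripk1-hepKO and 0.541 ± 0.168 CPM in Ripk1-Con, opposite in direction to Cxcl16, at a log2 fold change of -0.89 with an SE of 0.39 (edgeR adjusted p = 0.747). Cxcr3 averaged 0.474 ± 0.307 against 0.429 ± 0.108 CPM, Cxcr4 1.0 ± 0.184 against 0.839 ± 0.428 CPM, and the scavenging receptor Ackr3 0.971 ± 0.804 against 0.427 ± 0.239 CPM. The proteases Adam10, Adam17 and Dpp4, of which the last trims several CXC chemokines, stood at 31.4 ± 2.46, 23.9 ± 4.45 and 125 ± 29.3 CPM in Ripk1-hepKO and at 30.1 ± 3.54, 21.3 ± 2.70 and 134 ± 9.41 CPM in Ripk1-Con, and 0 of the 5 proteases passed.

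NF-kB feedback and early target genes, the list nearest to the induction of Cxcl1 and Cxcl2, had 14 of 15 tested, 12 above 0 and 0 that passed in edgeR, with a median log2 fold change of 0.66. Birc3 stood at 11.0 to 17.7 CPM in Ripk1-hepKO and 7.27 to 9.49 CPM in Ripk1-Con, and Nfkb2, an NF-kB subunit, at 6.73 to 12.8 CPM against 5.25 to 6.38 CPM. The groups did not overlap for 3 of the 14, where 4.10% of all genes did not (2.01% with Ripk1-hepKO the higher). These were Birc3, Nfkb2 and Il1b, of which Il1b stood at 19.5 CPM in mouse 28 and 2.89 to 3.08 CPM in the other Ripk1-hepKO mice, against 1.33 to 2.57 CPM in Ripk1-Con. Icam1, an adhesion molecule for leukocytes, averaged 34.6 ± 9.71 CPM in Ripk1-hepKO and 22.1 ± 4.77 CPM in Ripk1-Con. Nfkbia, a feedback inhibitor of NF-kB, stood at 20.5 to 30.6 CPM in Ripk1-hepKO and 21.0 to 33.0 CPM in Ripk1-Con. Mouse 28 had the highest sum of the list, 290 CPM against 166 to 183 CPM in the other Ripk1-hepKO mice and 112 to 200.5 CPM in Ripk1-Con.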

How the data were processed

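The authors deposited whole-number counts per Ensembl gene, 1 column per mouse, not normalized. Per the submitters' processing notes, the build was GRCm38.p6 and the tools named, with no role or order, were StringTie 2.2.1, DESeq2 1.38.1, STAR 2.5.2b and FastQC 0.11.5. The sources used here give neither the counting tool nor whether it used strand, although the labels' protocols describe a stranded dUTP library. Symbols came from GENCODE M21 (GRCm38) and matched 55154 IDs. Counts were filtered with filterByExpr, scaled by TMM and tested with edgeR 4.0.16 in R 4.3.3 (robust quasi-likelihood, genotype alone, Benjamini-Hochberg over 15234 genes). SEs were derived from the F statistic. Alternatives used DESeq2 1.42.0, limma 3.58.1, other filters and scalings, and each mouse left out. All tests were two-sided. Totals of 28038390 to 67328158 counts make 1 count worth 0.0162 to 0.0332 CPM, and no use of molecular identifiers was stated. Members, lists, markers and the rule for named genes (the 8 members, Ripk1, the other CXC genes, up to 3 genes of smallest p per list and the 3 nearest patterns per member) were chosen with earlier results of these data known. Additional genes named for contrast (Ifng, Iigp1, Nfkbia, Il1b, S100a8, Art3 and Zmynd15) were chosen after their values were seen. So were the neutrophil markers Lcn2, Retnlg, Ly6g, Camp, Ngp, Ltf, Mpo and Elane.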

Additional observations from a re-analysis of the deposited data

Results flagged for a closer look

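Of 16 groups of 4 mice (8 genes in 2 genotypes), 1 held a mouse far from the others. Cxcl14 in Ripk1-hepKO mouse 28 stood at 5.88 CPM, against 1.34 to 1.92 CPM in the other Ripk1-hepKO mice, and its gap to the nearest of them was 0.873 of the range of the group. Chance flags about 1 in 20 groups.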

How the results depend on the processing

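No paired analysis was possible because the genotypes share no mouse number. The number of members called was 0 under each alternative run. Over all genes, DESeq2's Wald test called 36 genes, against 0 by edgeR, and none was a member. The log2 fold change of Cxcl1, 0.18, was -0.24 without mice 28 and 40 and ran from -0.18 to 0.99 with 1 mouse left out. That of Cxcl13, 0.27, was -0.026 with limma voom and ran from -0.62 to 0.93 with 1 mouse left out. The median of the members was 0.30 without mice 28 and 40, and 0.38 with a filter of 1 CPM in 4 libraries, which drops Cxcl2. The 3 member relations that passed became 0 with genotype means removed and 0 without mice 28 and 40, and 0 to 3 with 1 mouse left out. Per length, Cxcl1 was 34.4 RPKM with protein-coding transcripts alone (chosen after seeing the data) and Cxcl12 42.9 RPKM with the longest transcript, as those lengths are shorter. The cause was not tested for the other changes. Depth limits Cxcl2, with 6 to 91 counts per library.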
